A study of Mus musculus with 12 samples.

Results

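Transcript levels of 10 genes of autophagy and ER-phagy were followed in mouse brown adipose tissue with and without Sel1L in adipocytes, at room temperature and at 4 °C. The genes were Sqstm1, Map1lc3a, Map1lc3b, Gabarapl1, Wipi1, Retreg1, Tex264, Ccpg1, Rtn3 and Atl3. Each was read by the only probe set to which the platform annotation gives that gene symbol alone, so 10 probe sets were described out of 23521 with exactly 1 symbol and 41345 in all. The 12 whole-transcript arrays held brown fat of C57BL/6J mice, 3 in each of 4 groups, all fasted for 5 h. The wildtype groups, named as in the labels, were Sel1L f/f littermates at room temperature and at 4 °C. The other groups, labelled adipocyte-specific Sel1L KO and called knockout here, carried the same floxed alleles and an Adiponectin-driven Cre, and were held at room temperature or at 4 °C. The Adiponectin promoter drives Cre in adipocytes of all depots, and the other cells of the tissue keep Sel1L. Neither age nor sex of the mice was given in these sources. The design text speaks of isolated brown adipocytes and the sample labels of brown adipose tissue.

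Autophagy encloses cytoplasm in a double membrane that grows from a cup, the phagophore, and delivers it to lysosomes. Small ubiquitin-like proteins of the ATG8 family, the LC3 and GABARAP proteins, are conjugated to lipid on that membrane, and receptors such as Sqstm1 bind both cargo and ATG8. ER-phagy is the branch that removes parts of the endoplasmic reticulum, and Retreg1, Tex264, Ccpg1, Rtn3 and Atl3 are receptors that sit in the ER membrane and bind ATG8 proteins. Sel1L serves the ligase Hrd1 in ER-associated degradation, the other main route by which the ER disposes of misfolded protein.

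At 4 °C, Sqstm1 and Wipi1 were higher and Ccpg1 lower in the arrays labelled knockout than in the wildtype, so that 2 of the 10 genes rose, 1 fell and 7 did not pass the test (an adjusted p under 0.05 in limma over all 23521 probe sets). Of all probe sets, 3.61% were called higher and 2.19% lower in that comparison, 5.8% in all. At room temperature, 0 of the 10 genes were called between the genotypes, while 1.72% of all probe sets were called, 1.29% higher and 0.429% lower in the knockout. At an unadjusted p under 0.05 in limma there were 3 of the 10, beside 13% of all probe sets. In the cold, Sqstm1 and Gabarapl1 rose in both genotypes. Map1lc3a and Atl3 fell in the wildtype, and Wipi1 rose in the knockout. That made 2 higher and 2 lower of 10 in the wildtype, where 4.85% of all probe sets were called higher and 6.23% lower (11.1% in all), and 3 higher and 0 lower of 10 in the knockout, where the shares were 4.32% and 4.7% (9.03% in all). These shares include many dim probe sets, whereas all 10 genes had a mean of at least 5.26. A fit limited to the 8265 probe sets with a mean of at least 4 called more of them. Between the genotypes it called 545 at room temperature and 1544 at 4 °C, beside 1 and 4 of the 10 genes. With cold it called 2492 in the wildtype and 2052 in the knockout, beside 5 and 4 of the 10. The 4 groups enter several comparisons each, so the comparisons are not independent of one another.

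**Figure D1:**
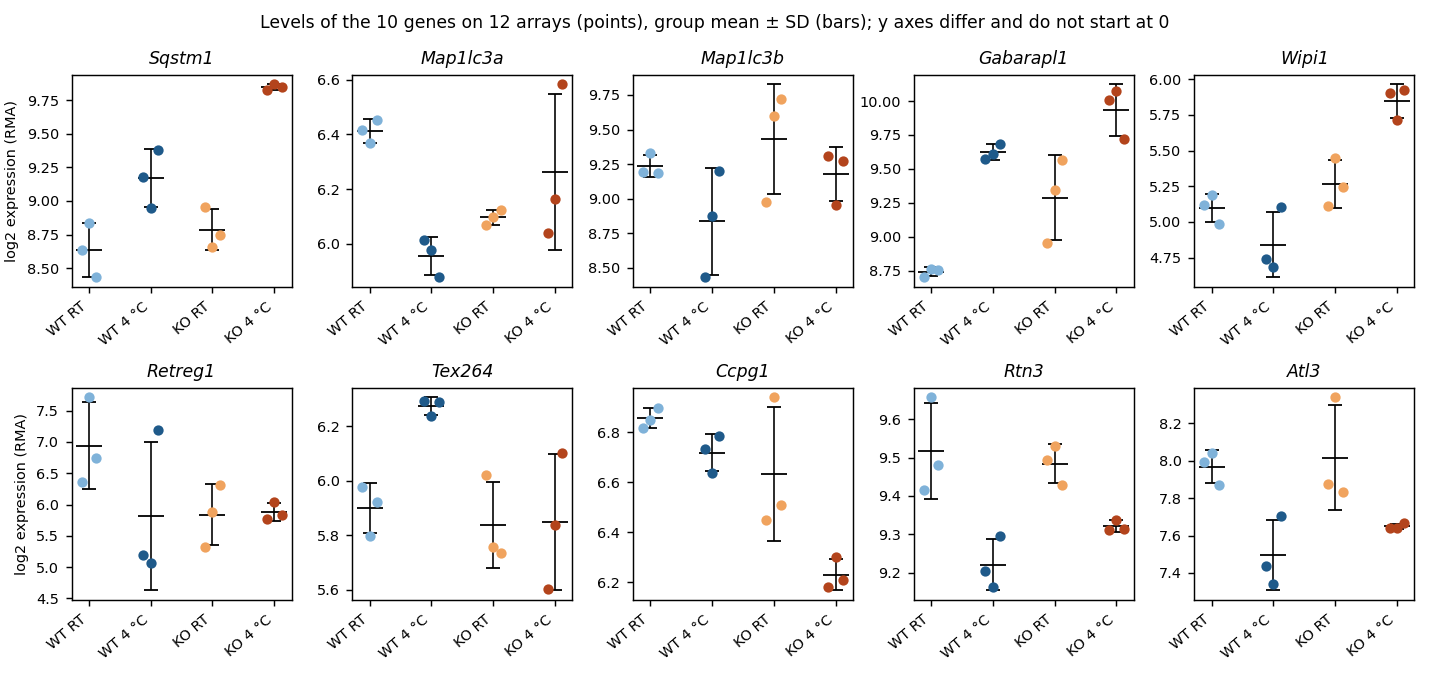
Level of each of the 10 genes on every array, as log2 expression (vertical axis, scaled per gene), in wildtype (WT) and knockout (KO) tissue at room temperature (RT) and 4 °C. Points are arrays and bars the group mean ± SD (n = 3). Sqstm1 and Wipi1 stand highest in all 3 knockout arrays at 4 °C, Ccpg1 lowest in the same arrays, and Retreg1 spreads most, by 2.64 over the 12 arrays.

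Promoter windows are shown for Sqstm1, Gabarapl1 and Wipi1, the genes that rose in the knockout at 4 °C against room temperature, and for Ccpg1, which fell against the wildtype at 4 °C, so that their letters can be set beside their values. They are the 250 bases before the annotated start in RefSeq (GRCm38.p6), 5′ to 3′ on the strand of the gene, and 9 of the 10 genes had at least 1 such window (13 in all), Map1lc3a being the one without. Capitals mark CCACG or its reverse complement, the closing letters of the ER stress response element. The windows are chr11:50210821-50211070, minus strand for Sqstm1, chr6:129532942-129533191, plus strand for Gabarapl1, chr11:109611390-109611639, minus strand for Wipi1 and chr9:72985254-72985503, plus strand for Ccpg1.
Sqstm1: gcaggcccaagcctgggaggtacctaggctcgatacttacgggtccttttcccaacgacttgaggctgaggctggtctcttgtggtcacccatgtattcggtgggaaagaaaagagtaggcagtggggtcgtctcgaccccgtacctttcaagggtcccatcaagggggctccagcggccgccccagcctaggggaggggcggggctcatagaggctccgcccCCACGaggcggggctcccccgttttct
Gabarapl1: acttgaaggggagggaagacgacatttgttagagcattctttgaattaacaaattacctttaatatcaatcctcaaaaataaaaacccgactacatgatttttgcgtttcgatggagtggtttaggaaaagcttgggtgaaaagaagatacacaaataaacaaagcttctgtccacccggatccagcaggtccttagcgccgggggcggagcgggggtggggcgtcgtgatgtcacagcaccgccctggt
Wipi1: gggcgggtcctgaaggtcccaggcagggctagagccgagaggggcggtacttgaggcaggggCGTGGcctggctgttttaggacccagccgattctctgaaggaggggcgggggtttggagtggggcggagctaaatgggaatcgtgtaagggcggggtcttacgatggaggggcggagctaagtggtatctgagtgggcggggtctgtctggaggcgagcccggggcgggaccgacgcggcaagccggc
Ccpg1: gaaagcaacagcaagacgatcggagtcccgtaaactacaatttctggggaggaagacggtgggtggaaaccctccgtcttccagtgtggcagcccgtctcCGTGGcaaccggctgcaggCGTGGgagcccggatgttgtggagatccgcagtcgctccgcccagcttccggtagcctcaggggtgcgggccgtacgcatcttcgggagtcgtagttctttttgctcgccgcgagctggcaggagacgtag
The CCACG letters occurred once in the windows of Sqstm1 and Wipi1, 2 times in that of Ccpg1 and 0 times in that of Gabarapl1, and 28.3% of all 32851 promoter windows of this length held them. They were therefore found both in genes that rose and in one that fell. A further 8 motifs were searched on both strands, and 0 were found in these 4 windows. They were the E-box CACGTG (in 6.02% of all windows), the longer CLEAR motif of lysosomal genes (0.24%), which contains the E-box, CCAAT (33.8%), the CRE TGACGTCA (1.55%), the UPRE TGACGTGG (0.563%), which contains CCACG in reverse complement, the antioxidant response core TGACNNNGC (10.2%), the FOXO motif GTAAACA (3.17%) and the amino acid response letters TTGCATCA (0.791%). A match is only a match of letters.

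The tissue label was checked first. Defining genes of brown adipocytes were bright on every array, with Ucp1 at 12.38 to 12.83 and Cidea at 11.59 to 11.89 on the log2 scale, against array medians of 2.03 to 2.09. Sel1l, the deleted gene, read 6.96 to 7.37 in the wildtype and 5.92 to 6.18 in the knockout at room temperature, without overlap. At 4 °C it read 6.69 to 7.04 in the wildtype and 6.54 to 6.90 in the knockout, so it did not check the knockout label there, and which part of the transcript is read is not known here. Replicate 3 of the wildtype at room temperature carries that temperature in its title but 4 °C in its source name. The title was followed, and which of the 2 is right was not settled. On this array the mean log2 level of 10 brown adipocyte markers was 9.67. It was 9.58 and 9.29 on the other wildtype arrays at room temperature and 10.20 to 10.30 on those at 4 °C. A score of 18 skeletal muscle genes ranged from 2.46 to 7.37. At room temperature it was 5.87 to 6.72 in the wildtype and 2.85 to 5.84 in the knockout, without overlap. The median log2 difference of the 18 genes between the genotypes there was -2.28. At 4 °C the score was 4.53 to 7.37 in the wildtype and 2.46 to 6.03 in the knockout, with overlap and a median difference of -0.99. Arrays of one group varied widely in these genes, and 0 of the 18 were called in any comparison. The mean of 10 brown adipocyte markers was 9.93 to 9.98 in the knockout and 10.20 to 10.30 in the wildtype at 4 °C, without overlap, and 2 of the 10 were called lower in the knockout there. At room temperature it was 9.55 to 9.78 in the knockout and 9.29 to 9.67 in the wildtype, and with cold 3 of the 10 rose in the wildtype and 2 in the knockout. With cold, 2 of 6 endothelial markers rose and 1 fell in the wildtype, and 1 rose and 1 fell in the knockout. Of 10 macrophage markers, 1 rose with cold in each genotype, and of 2 Schwann cell markers measured, 1 fell in the wildtype. The part of these shifts in the values of the 10 genes was not tested. In such bulk tissue, fewer cells of a type and less RNA per cell cannot be told apart.

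**Figure D2:**
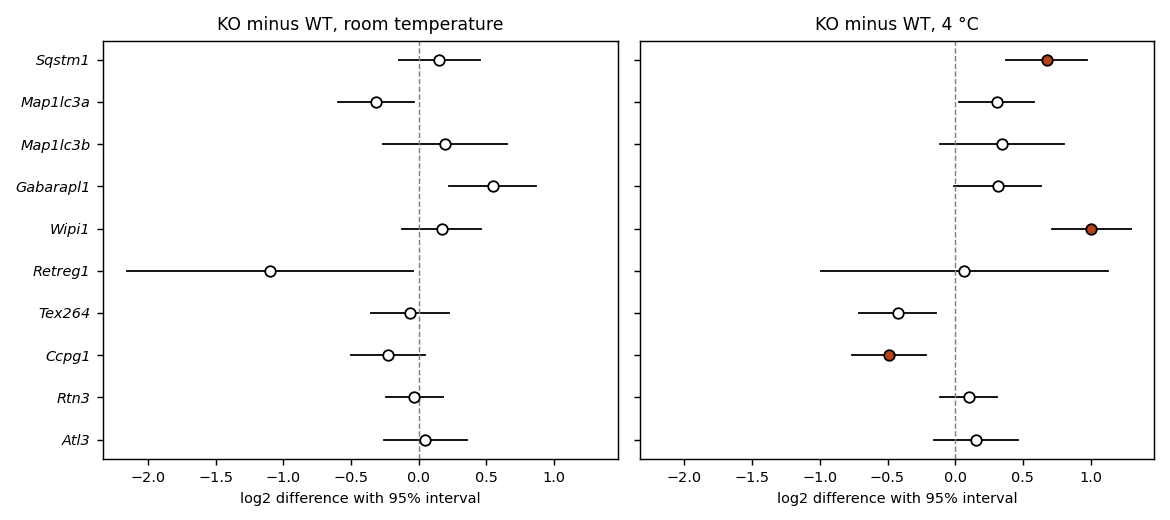
Knockout minus wildtype at room temperature (left) and at 4 °C (right) for the 10 genes, as log2 difference (horizontal axis) with its 95% interval. Filled points passed the test: 0 are filled at room temperature, and Sqstm1, Wipi1 and Ccpg1 are filled at 4 °C.

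Sqstm1 encodes the receptor that gathers ubiquitinated cargo and hands it to the autophagosome. It read 8.63, 8.84 and 8.43 in the wildtype at room temperature, 8.95, 8.66 and 8.75 in the knockout at room temperature, 9.18, 8.95 and 9.38 in the wildtype at 4 °C, and 9.83, 9.87 and 9.84 in the knockout at 4 °C. The knockout arrays at 4 °C stood above all others and within 0.02 (SD) of each other, whereas the 2 genotypes overlapped at room temperature. At 4 °C Sqstm1 was 1.60-fold higher in the arrays labelled knockout (log2 0.68 ± 0.14 SE, adjusted p = 0.011), and this call held when any single array was left out (adjusted p up to 0.0463). At room temperature the difference was 0.15 (95% interval -0.15 to 0.45, adjusted p = 0.732). Cold raised Sqstm1 2.09-fold in the knockout (1.06 ± 0.14, adjusted p = 0.000596), also whichever array was left out. In the wildtype it rose 1.45-fold (0.54 ± 0.14, adjusted p = 0.0248), a call lost without wildtype replicates 1 or 3 at room temperature or 1 or 3 at 4 °C (adjusted p up to 0.094, without replicate 3 at room temperature). The interaction, by which the cold response of the knockout exceeds that of the wildtype, was 0.52 ± 0.19 and did not pass (adjusted p = 0.371).

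Wipi1 encodes a protein that binds the phosphoinositide made at the growing phagophore. Its values were 5.12, 5.19 and 4.99 in the wildtype and 5.11, 5.45 and 5.24 in the knockout at room temperature, and 4.74, 4.68 and 5.10 in the wildtype and 5.91, 5.71 and 5.93 in the knockout at 4 °C. Only the knockout arrays at 4 °C stood apart from the rest, and each other group overlapped its neighbour when ordered by mean. At 4 °C Wipi1 was 2.01-fold higher in the arrays labelled knockout (1.01 ± 0.14, adjusted p = 0.000522), the largest difference among the 10 genes at that temperature, and the call held without any single array (adjusted p up to 0.00398). At room temperature the difference was 0.17 (95% interval -0.12 to 0.46, adjusted p = 0.681). Cold raised Wipi1 in the knockout by a log2 difference of 0.58 ± 0.14 (adjusted p = 0.017), a call lost without knockout replicates 1 or 3 at room temperature or 1 or 3 at 4 °C (adjusted p of at most 0.0661, on dropping replicate 1 at 4 °C). In the wildtype the cold difference was -0.26 (95% interval -0.55 to 0.04, adjusted p = 0.291). The interaction of 0.84 ± 0.19 was not called (adjusted p = 0.102), and passed without wildtype replicate 3 at 4 °C (0.97, adjusted p = 0.0393).

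Gabarapl1, an ATG8 protein of the GABARAP branch, was the member whose 4 groups were fully separated in order. It read 8.70, 8.77 and 8.76 in the wildtype at room temperature, 8.95, 9.35 and 9.57 in the knockout at room temperature, 9.57, 9.61 and 9.69 in the wildtype at 4 °C, and 10.01, 10.08 and 9.72 in the knockout at 4 °C. The second and the third of these groups lay next to each other, with the highest knockout array at room temperature just under the lowest wildtype array at 4 °C. How many of all probe sets had 4 separated groups was not counted. Cold raised Gabarapl1 1.84-fold in the wildtype (0.88 ± 0.15, adjusted p = 0.0025), whichever array was left out (adjusted p up to 0.0123). In the knockout it rose 1.57-fold (0.65 ± 0.15, adjusted p = 0.0157), a call lost without knockout replicates 1 or 2 at 4 °C (adjusted p up to 0.0731, without replicate 2). The knockout was 0.55 ± 0.15 higher at room temperature (95% interval 0.23 to 0.87), which missed the threshold (adjusted p = 0.0943) and passed it when knockout replicate 1 of that temperature was dropped (0.72, adjusted p = 0.0195). At 4 °C the difference was 0.31 (95% interval -0.01 to 0.63, adjusted p = 0.311), and the interaction was -0.23 ± 0.21 (adjusted p = 0.791). Averaged over both temperatures, the knockout was 0.43 ± 0.10 higher (adjusted p = 0.0256), which failed in 8 of 12 fits that each dropped 1 array (the highest adjusted p was 0.0692, when knockout replicate 2 at 4 °C was dropped) and in the fit that included the muscle score (0.16). The muscle score was 2.85 and 3.57 on the 2 knockout arrays at room temperature where Gabarapl1 was highest and 5.84 on the third. Its part in that result was not tested beyond this covariate.

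Map1lc3a and Map1lc3b encode the LC3 branch of the ATG8 family. Map1lc3a read 6.42, 6.37 and 6.45 in the wildtype and 6.07, 6.10 and 6.12 in the knockout at room temperature. At 4 °C it read 6.01, 5.98 and 5.88 in the wildtype and 6.04, 6.16 and 6.58 in the knockout. The knockout arrays thus lay below all wildtype arrays at room temperature and above all of them at 4 °C. Neither genotype difference passed the test, at -0.32 (95% interval -0.59 to -0.04, adjusted p = 0.306) and 0.31 (0.03 to 0.58, adjusted p = 0.237), and nor did the interaction (0.62 ± 0.18, adjusted p = 0.227). Groups without overlap were common, at 17.4% of all probe sets for the genotypes at room temperature and 21.8% at 4 °C. Between the temperatures the shares were 25.9% in the wildtype and 25.8% in the knockout. In the wildtype, cold lowered Map1lc3a 1.37-fold (-0.46 ± 0.13, adjusted p = 0.0386), a call lost when any wildtype array or any knockout array at room temperature was dropped (adjusted p of at most 0.101, for wildtype replicate 3 at room temperature). In the knockout its cold difference was 0.17 (95% interval -0.11 to 0.44, adjusted p = 0.553), with replicate 3 at 4 °C above the other arrays of its group.

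Map1lc3b did not pass the test in any of these comparisons. It read 9.20, 9.33 and 9.18 in the wildtype and 8.98, 9.60 and 9.72 in the knockout at room temperature, and 8.43, 8.87 and 9.20 in the wildtype and 9.31, 8.96 and 9.27 in the knockout at 4 °C, with every neighbouring pair of groups overlapping. Its genotype differences were 0.20 at room temperature (95% interval -0.26 to 0.65, adjusted p = 0.788) and 0.34 at 4 °C (-0.11 to 0.80, adjusted p = 0.473). Its cold differences were -0.40 in the wildtype (-0.86 to 0.06, adjusted p = 0.291) and -0.25 in the knockout (-0.71 to 0.21, adjusted p = 0.594). The interval between genotypes at 4 °C includes the difference of 0.68 measured for Sqstm1.

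**Figure D3:**
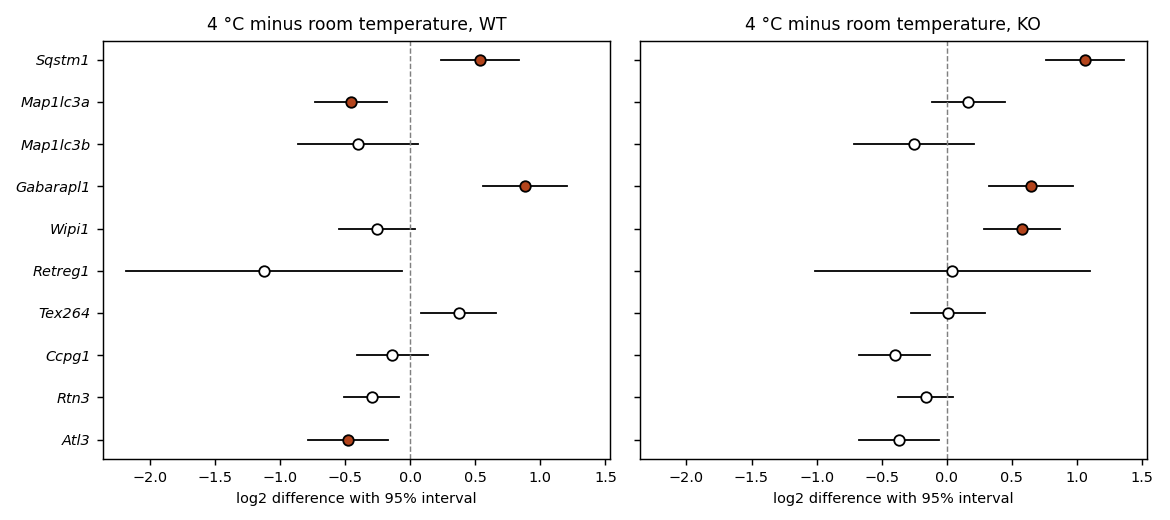
Cold response, 4 °C minus room temperature, of the 10 genes in wildtype (left) and knockout (right) tissue, as log2 difference with its 95% interval. Filled points passed the test: Sqstm1 and Gabarapl1 lie right of 0 in both panels, Map1lc3a and Atl3 left of 0 in the wildtype, and Wipi1 right of 0 in the knockout.

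Among the ER-phagy receptors of the 10 genes, Ccpg1 was the only one called between the genotypes. It encodes a single-pass ER membrane protein that is known elsewhere as a target of the unfolded protein response. It read 6.82, 6.85 and 6.90 in the wildtype and 6.45, 6.94 and 6.51 in the knockout at room temperature, and 6.73, 6.64 and 6.78 in the wildtype and 6.18, 6.30 and 6.21 in the knockout at 4 °C. The knockout arrays at 4 °C were the lowest 3 of the 12, and at room temperature 1 knockout array was the highest of all. At 4 °C Ccpg1 was 1.40-fold lower in the arrays labelled knockout (-0.49 ± 0.13, adjusted p = 0.0408), which did not survive dropping any one of the 6 wildtype arrays or the 3 knockout arrays at 4 °C (adjusted p of at most 0.124, on dropping knockout replicate 1 at 4 °C), nor including the muscle score (0.0606) or the replicate number (0.0572) in the fit. The difference stayed between -0.53 and -0.45 in all of these. At room temperature it was -0.22 (95% interval -0.50 to 0.05, adjusted p = 0.506), and the interaction was -0.26 ± 0.18 (adjusted p = 0.699). Averaged over temperature, Ccpg1 differed by -0.36 ± 0.09 in the knockout (adjusted p = 0.0302), which failed in 10 of 12 fits that each dropped 1 array (adjusted p of at most 0.0732, on dropping knockout replicate 3 at room temperature). In the cold it differed by -0.40 in the knockout (95% interval -0.67 to -0.13, adjusted p = 0.0707) and by -0.14 in the wildtype (-0.41 to 0.14, adjusted p = 0.607). A further 2 probe sets are annotated to both Ccpg1 and Pigb and were not used.

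Retreg1, a reticulon-like protein that curves ER sheets into fragments for autophagy, varied most between arrays of one group. It read 6.36, 7.71 and 6.74 in the wildtype at room temperature, 5.19, 5.07 and 7.18 in the wildtype at 4 °C, and 5.33, 5.88 and 6.31 in the knockout at room temperature. The knockout arrays at 4 °C read 5.77, 6.04 and 5.84. The wildtype at room temperature stood above the knockout arrays of both temperatures, but replicate 3 of the wildtype at 4 °C stood far above both other arrays of its own group. That array also had the highest muscle score of all, 7.37, against 4.98 and 4.53 on the other wildtype arrays at 4 °C. The order differed in other groups. In the knockout at room temperature, scores of 5.84, 2.85 and 3.57 went with Retreg1 at 5.33, 5.88 and 6.31. For the wildtype at room temperature, 5.87, 6.17 and 6.72 went with 6.36, 7.71 and 6.74. For the knockout at 4 °C, 2.46, 6.03 and 5.32 went with 5.77, 6.04 and 5.84. No comparison of Retreg1 passed the test, with -1.10 between genotypes at room temperature (95% interval -2.16 to -0.04, adjusted p = 0.36) and 0.07 at 4 °C (-0.99 to 1.13, adjusted p = 0.972). The cold difference was -1.12 in the wildtype (-2.18 to -0.06, adjusted p = 0.186) and 0.04 in the knockout (-1.02 to 1.10, adjusted p = 0.982). Without wildtype replicate 3 at 4 °C, the cold difference in the wildtype was -1.81 and passed (adjusted p = 0.00503), and the genotype difference at 4 °C was 0.75 (adjusted p = 0.283). In the fit that included the muscle score, the difference at room temperature was -0.73 (adjusted p = 0.752). The part of muscle RNA in these values was not tested further.

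**Figure D4:**
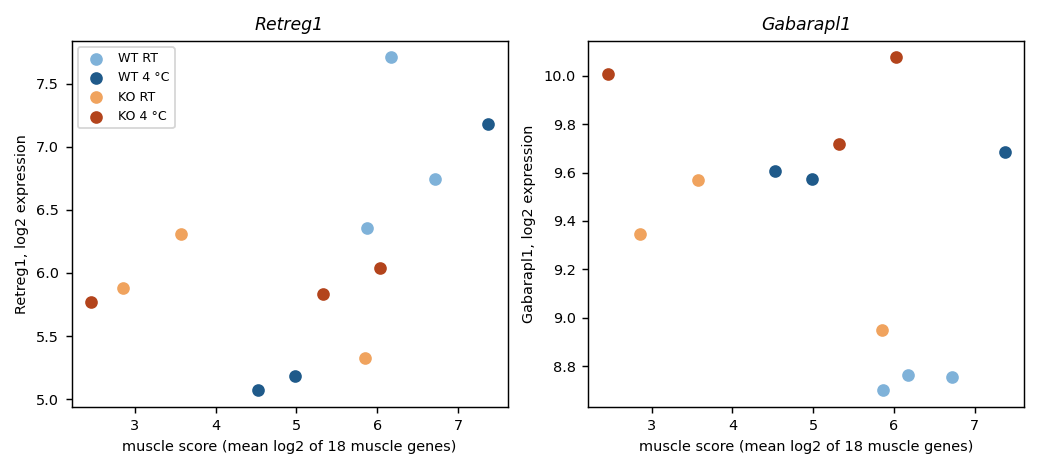
Retreg1 (left) and Gabarapl1 (right) as log2 expression against the muscle score, the mean log2 level of 18 skeletal muscle genes, with 1 point per array coloured by group. In the wildtype at 4 °C, the array with a score of 7.37 has Retreg1 at 7.18, and those with 4.98 and 4.53 have it at 5.19 and 5.07. In the knockout at room temperature, the array with 5.84 has Retreg1 at 5.33, and those with 2.85 and 3.57 have it at 5.88 and 6.31. The knockout arrays cover scores of 2.46 to 6.03 with Retreg1 between 5.33 and 6.31.

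Tex264, a receptor that binds ATG8 at junctions of ER tubules, read 5.98, 5.80 and 5.92 in the wildtype and 6.02, 5.76 and 5.73 in the knockout at room temperature. At 4 °C it read 6.29, 6.24 and 6.29 in the wildtype and 5.60, 5.84 and 6.10 in the knockout. The wildtype arrays at 4 °C were above all others, while the other 3 groups overlapped. The knockout differed from the wildtype by -0.42 at 4 °C (95% interval -0.71 to -0.14), which missed the threshold (adjusted p = 0.0902) and passed without knockout replicate 3 at 4 °C (-0.55, adjusted p = 0.0369). At room temperature the difference was -0.06 (-0.35 to 0.22, adjusted p = 0.91). The cold difference was 0.37 in the wildtype (0.09 to 0.66, adjusted p = 0.0985) and 0.01 in the knockout (-0.27 to 0.30, adjusted p = 0.983). The interaction, -0.36 ± 0.19, was not called (adjusted p = 0.581).

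Atl3 and Rtn3 shape ER tubules, the former as a membrane-fusing GTPase and the latter as a reticulon, and both serve as receptors for tubule ER-phagy. Atl3 read 7.99, 8.04 and 7.87 in the wildtype and 7.88, 8.34 and 7.83 in the knockout at room temperature, and 7.44, 7.34 and 7.70 in the wildtype and 7.64, 7.64 and 7.66 in the knockout at 4 °C. All 6 arrays at 4 °C were below all 6 at room temperature. Of all probe sets, 25.9% had no overlap between temperatures in the wildtype and 25.8% in the knockout, in either direction. The share for both genotypes together was not counted. Averaged over the genotypes, cold lowered Atl3 by a difference of -0.42 ± 0.10 (adjusted p = 0.0103), and this held without any single array (adjusted p up to 0.0291). In the wildtype alone it fell 1.39-fold (-0.47 ± 0.14, adjusted p = 0.0495), a call lost without 9 of the 12 arrays (adjusted p up to 0.176, without wildtype replicate 2 at 4 °C), and in the knockout the difference was -0.37 (95% interval -0.68 to -0.06, adjusted p = 0.148).

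Rtn3 read 9.42, 9.66 and 9.48 in the wildtype and 9.49, 9.53 and 9.43 in the knockout at room temperature, and 9.21, 9.16 and 9.29 in the wildtype and 9.31, 9.34 and 9.32 in the knockout at 4 °C. Its arrays at 4 °C were also all below those at room temperature, over a range of only 0.49. Cold lowered Rtn3 by a difference of -0.23 ± 0.07 averaged over the genotypes (adjusted p = 0.0354), which failed in 9 of 12 fits that each dropped 1 array (adjusted p of at most 0.0838, on dropping wildtype replicate 2 at room temperature). Within one genotype it did not pass, at -0.30 in the wildtype (95% interval -0.51 to -0.09, adjusted p = 0.0748) and -0.16 in the knockout (-0.37 to 0.05, adjusted p = 0.405). The genotypes differed by -0.03 at room temperature (-0.24 to 0.18, adjusted p = 0.937) and 0.10 at 4 °C (-0.11 to 0.31, adjusted p = 0.705), and for Atl3 by 0.05 (-0.26 to 0.35, adjusted p = 0.939) and 0.15 (-0.15 to 0.46, adjusted p = 0.685).

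Averaged over temperature, the knockout differed from the wildtype in 4 of the 10 genes, with Sqstm1 (0.41 ± 0.10, adjusted p = 0.0214), Wipi1 (0.59 ± 0.10, adjusted p = 0.00204) and Gabarapl1 higher and Ccpg1 lower, beside 4.24% and 2.73% of all probe sets. The Sqstm1 call was lost without wildtype replicate 3 or knockout replicate 1 at room temperature or knockout replicate 2 at 4 °C (adjusted p up to 0.0531), and that of Wipi1 held without any single array. Averaged over genotype, 4 of the 10 responded to cold, with Sqstm1 (0.80 ± 0.10, adjusted p = 0.000129) and Gabarapl1 (0.76 ± 0.10, adjusted p = 0.000288) higher and Atl3 and Rtn3 lower, beside 7.51% and 10.1% of all probe sets. The interaction was called by limma for 0 of the 10 genes and for 0.306% of all probe sets, 0.23% with a positive and 0.0765% with a negative sign. At an unadjusted p under 0.05 it was 3 of the 10, Sqstm1, Map1lc3a and Wipi1, beside 9.77% of all probe sets. The median absolute difference of the 10 genes was 0.18 at room temperature and 0.33 at 4 °C between genotypes, against 0.13 and 0.14 over all probe sets. Many of the latter are dim, and all 10 genes had a mean of at least 5.26 on the log2 scale. The fit limited to the 8265 probe sets with a mean of at least 4 called 1871 between genotypes averaged over temperature, beside 4 of the 10 genes. For cold averaged over genotype it called 3538, beside 5 of the 10, and for the interaction 114, beside 0.

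Lists of the other autophagy genes were drawn up with earlier results of these data known, and are described by counts. For these counts, the shares called over all probe sets were 1.29% higher and 0.429% lower at room temperature, and 3.61% and 2.19% at 4 °C. The fit limited to the 8265 probe sets with a mean of at least 4 called 545 and 1544 of them, in either direction. The group of other ER-phagy and ER-shaping genes had 2 of 17 measured members higher in the knockout at room temperature and 4 of 17 at 4 °C, and 0 lower. The 4 genes were Cdk5rap3, Ufl1, Ufm1 and Ufc1, which as background act in attaching the ubiquitin-like protein UFM1 to targets at the ER. The genes of that system were not a list of their own and were grouped here after their values were seen. Ddrgk1, another of them, was not called at either temperature (-0.083, adjusted p = 0.838, and 0.23, adjusted p = 0.313). Cdk5rap3, a subunit of the UFM1 ligase, was 2.09-fold higher at room temperature (1.07 ± 0.21, adjusted p = 0.0193) and 3.62-fold higher at 4 °C (1.86 ± 0.21, adjusted p = 0.000105). The ligase Ufl1 was 1.70-fold (0.77 ± 0.14, adjusted p = 0.0112) and 2.37-fold higher (1.24 ± 0.14, adjusted p = 8.92e-05). Ufm1 itself was 2.38-fold higher at 4 °C (1.25 ± 0.11, adjusted p = 1.78e-05), and the fourth gene, named after its values were seen, was the conjugating enzyme Ufc1, 1.64-fold higher (0.72 ± 0.16, adjusted p = 0.0204). At room temperature the call of Cdk5rap3 was lost without wildtype replicates 1 or 3 or knockout replicates 2 or 3 (adjusted p up to 0.0768), and that of Ufl1 without wildtype replicate 3 or knockout replicate 2 (adjusted p up to 0.0512). Both failed once the muscle score was in the fit (0.0658 and 0.0957), and those at 4 °C were not. The interactions of Cdk5rap3, Ufl1 and Ufm1 were not called (adjusted p = 0.368, 0.426 and 0.0709). The median of this list was 0.14 at 4 °C, against -0.01 over all probe sets.

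In the next 6 lists, counts of 0 or 1 are near the shares called over all probe sets, 1.72% at room temperature and 5.8% at 4 °C, and say nothing particular to the list. Of 12 other autophagy receptors, 1 was higher and 0 lower in the knockout at room temperature, and 2 were higher and 3 lower at 4 °C. Stbd1, a glycogen-binding protein that engages GABARAP proteins, was 2.19-fold higher at room temperature (1.13 ± 0.19, adjusted p = 0.00828), which failed once the muscle score was in the fit (0.0778), and 2.60-fold higher at 4 °C (1.38 ± 0.19, adjusted p = 0.000657). Fundc1, a receptor for mitochondria, was 1.62-fold higher at 4 °C (adjusted p = 0.00641). The 3 lower ones at 4 °C all passed narrowly. They were Ncoa4 (log2 -0.50, adjusted p = 0.0414), Phb2 (-0.46, adjusted p = 0.0469) and Calcoco1 (-0.42, adjusted p = 0.0431). The Ncoa4 call was lost in 15 of 20 alternative fits. Of 12 genes of initiation and nucleation, 1 was lower at room temperature, and 1 was higher and 1 lower at 4 °C. The lower one in both was Ulk1, the kinase that starts autophagy, at 1.73-fold (adjusted p = 0.043) and 1.65-fold (adjusted p = 0.0307), and at each temperature its call failed on dropping any of several single arrays and once the muscle score was in the fit (0.173 and 0.052). Of 12 genes of the ATG8 family and its conjugation, 0 were called at room temperature and 1 was lower at 4 °C. Of 9 genes of phagophore growth, 0 and 1 were called, the latter being the ER lipid scramblase Tmem41b, 1.90-fold higher (adjusted p = 0.00174). Of 20 lysosomal genes, 0 were called at room temperature, and 2 were higher and 2 lower at 4 °C, among them the cholesterol transporter Npc1, 3.51-fold higher (adjusted p = 0.000122). Of 14 genes of autophagosome-lysosome fusion, 1 was lower at room temperature, and 1 was higher and 2 lower at 4 °C, with the tether Tecpr1 2.04-fold lower (adjusted p = 0.00462).

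Among 15 transcriptional regulators of autophagy, 3 were higher in the knockout at room temperature, namely Trib3, Xbp1 and Ddit3, and 2 were higher and 1 lower at 4 °C. Xbp1, a transcription factor of the unfolded protein response, was 2.76-fold higher at room temperature (adjusted p = 9.6e-05) and 4.21-fold at 4 °C (adjusted p = 1.42e-06). Ppara, a lipid-sensing nuclear receptor, was the lower one at 4 °C, by 2.82-fold (adjusted p = 0.000165). In the cold, where 11.1% of all probe sets were called in the wildtype and 9.03% in the knockout, 4 of these 15 rose and 0 fell in the wildtype, with Sesn2 3.18-fold (adjusted p = 0.000451) and Atf4 3.05-fold higher (adjusted p = 0.000301), and 3 rose and 1 fell in the knockout, with Sesn2 3.46-fold higher (adjusted p = 0.000353).

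The other lists are read against the same shares, 11.1% and 9.03%, to which counts of 1 or 2 in a list are near. With cold, the fit limited to the 8265 probe sets with a mean of at least 4 called 2492 of them in the wildtype and 2052 in the knockout. Of 12 genes of initiation and nucleation, 4 rose and 1 fell in the wildtype and 3 rose and 1 fell in the knockout. Atg101, a subunit of the ULK1 complex, rose 3.25-fold in the wildtype (adjusted p = 0.000934) and 2.15-fold in the knockout (adjusted p = 0.0117, and 0.0536 without knockout replicate 1 at 4 °C). Of 20 lysosomal genes, 4 rose and 1 fell in each genotype, with Atp6v1h of the proton pump 2.64-fold higher in the wildtype (adjusted p = 0.00022) and 1.77-fold in the knockout (adjusted p = 0.00472). Of 9 genes of phagophore growth, 1 rose in the wildtype and 2 in the knockout. Of 12 of the ATG8 family and its conjugation, 1 rose and 2 fell in the wildtype and 0 rose and 2 fell in the knockout, the latter 2 being the proteases Atg4a and Atg4c in both. Of 17 other ER-phagy and ER-shaping genes, 1 rose and 4 fell in the wildtype, and 2 rose and 1 fell in the knockout. Retreg3, a relative of Retreg1, fell 1.63-fold in the wildtype (adjusted p = 0.00336) and 1.66-fold in the knockout (adjusted p = 0.00308). Of 12 other receptors, 1 rose and 0 fell in the wildtype and 1 rose and 1 fell in the knockout, and of 14 fusion genes 0 rose in either, while 1 and 2 fell.

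**Figure D5:**
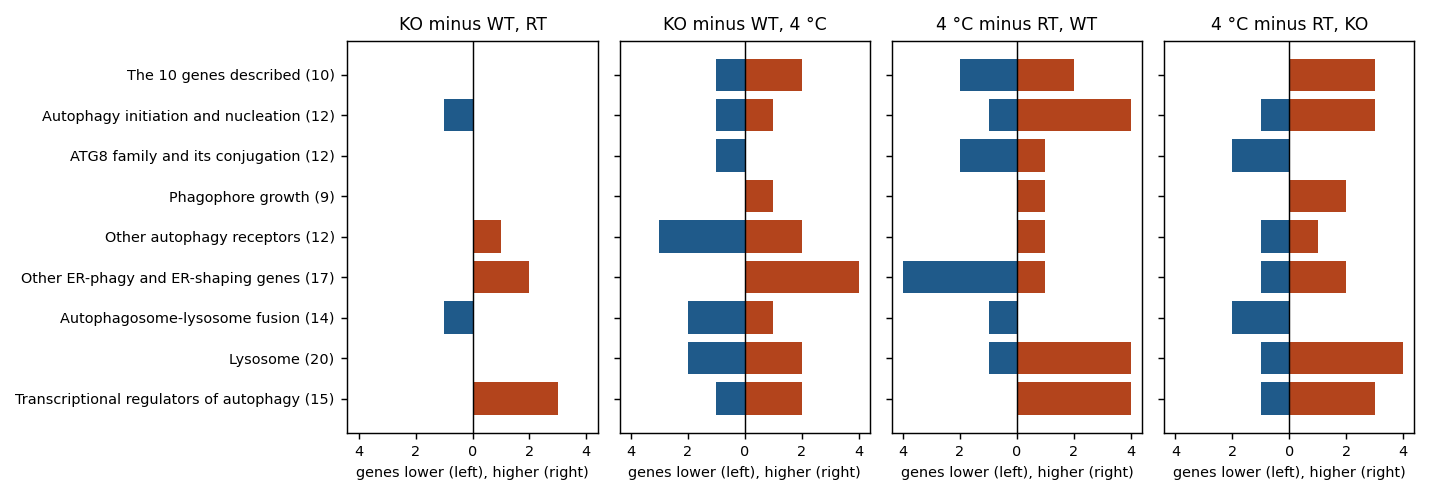
Number of genes called higher (red, right of 0) or lower (blue, left of 0) in the group of 10 genes and in 8 lists of other autophagy genes, with the number measured in parentheses, for 4 comparisons. The red bars of the transcriptional regulators reach 3 for knockout minus wildtype at room temperature, and those of other ER-phagy and ER-shaping genes reach 4 at 4 °C.

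The cold calls of the wildtype were made with replicate 3 at room temperature, as its title has it. With that array counted as 4 °C, as its source name has it, limma called 0 of 23521 probe sets in that comparison, beside 3602 at an unadjusted p under 0.05, and 0 of the 10 genes. With it left out, 1 of the 10, Gabarapl1, was called, and 1 of the 10 was also called without wildtype replicate 1 at room temperature. On leaving out any single array, 1608 to 2875 probe sets were called with cold in the wildtype. The wildtype cold calls of Atg101, Atp6v1h, Atg4a, Atg4c, Retreg3, Sesn2 and Atf4 held with replicate 3 left out and were lost with it moved. The genotype calls of Sqstm1, Wipi1 and Ccpg1 at 4 °C and the cold calls of Sqstm1 and Wipi1 in the knockout held with the array moved (adjusted p = 0.0188, 0.000622, 0.028, 0.0142 and 0.0347), and that of Gabarapl1 in the knockout did not (0.152). Calls of Cdk5rap3 (0.17), Ufl1 (0.056), Stbd1 (0.0745), Ulk1 (0.234) and Trib3 (0.106) between genotypes at room temperature, and of Atg101 (0.0733), Atp6v1h (0.194) and Atg4a (0.0611) with cold in the knockout, were also lost with it moved. Of the averages, those of Sqstm1 (0.104) and Gabarapl1 (0.101) between genotypes and of Atl3 (0.0531) and Rtn3 (0.141) between temperatures were lost.

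For each of the 7 genes called in at least 1 comparison, the genes with the most similar levels over the 12 arrays were found by Pearson correlation, as a description that mixes differences between and within the 4 groups. Sqstm1 was most like Polr3d (r = 0.971) and Ppp1r15a (r = 0.968), and Wipi1 most like Zyg11b (r = 0.960) and Spcs3 (r = 0.946). Gabarapl1 was most like Tbc1d15 (r = 0.974) and Nifk (r = 0.970), and Ccpg1 most like Pcx (r = 0.952) and Ubr3 (r = 0.943). Atl3 was most like Rp9 (r = 0.979) and Oard1 (r = 0.962), Rtn3 most like Osgepl1 (r = 0.961) and Rhbdf1 (r = 0.957), and Map1lc3a most like Mir669m-2 (r = 0.914) and Ube2e2 (r = 0.901).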

How the data were processed

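Brown adipose tissue was measured on 12 arrays, 3 per group, grouped by the sample titles. The deposited values are log2 expression per probe set, made with RMA (no version stated), per the submitters' processing notes. RMA normalizes between arrays and compresses differences near background, so folds of dim genes are understated. Raw intensities and probe positions were not used here, so background, saturation and the background correction could not be varied. No slide or scan batch was given.

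Of the 41345 probe sets, 23521 have exactly 1 platform symbol, 1814 several and 16010 none. RefSeq changed 0 symbols. Group means of all 12 arrays were modelled together in limma 3.58.1 under R 4.3.3 (lmFit, then contrasts.fit and eBayes), leaving 8 residual degrees of freedom and using no filter on brightness. Benjamini-Hochberg adjustment covered the 23521 probe sets, and an adjusted p under 0.05 was a call. The number of arrays limits the precision: between 2 groups, the standard error had a median of 0.14. The script was tested on simulated data. No label says that replicates are separate animals, so p-values measure only the spread between these arrays, which may be technical.

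The 10 genes and all lists were chosen with earlier results of these data known. The rule for names took all 10 genes, Sel1l, at most the 3 called genes with the largest difference per list and comparison, and the 2 genes most alike by Pearson r for each of the 10 that was called. Ufc1, and Phb2 and Calcoco1 between the genotypes at 4 °C, were named outside it. The red blood cell markers had 0 of 4 measured. Macrophage, endothelial, fibroblast, lymphocyte, neutrophil and mast cell and Schwann cell markers were also scored: their mean log2 levels ranged over the 12 arrays from 5.09 to 6.01, 7.22 to 7.83, 6.55 to 7.47, 1.76 to 2.21, 2.19 to 2.96 and 3.45 to 4.38. No lymphocyte or fibroblast marker was called in any comparison, and 1 of 6 neutrophil and mast cell markers was higher in the knockout averaged over temperature. Alternatives were a brightness filter, all probe sets, renewed quantile normalization, trended and robust eBayes, the replicate number as a block, the muscle score as a covariate, the relabelled array, the 6 arrays compared alone and each array left out. Each of the 10 genes had 1 probe set with its symbol alone, so there were none to average for them. For other genes the probe set with the highest mean over the 12 arrays was used.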

Additional observations from a re-analysis of the deposited data

Results flagged for a closer look

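Map1lc3a was singled out because its knockout arrays lay below every wildtype array at room temperature and above every one at 4 °C. The test of that difference, an interaction of 0.62 ± 0.18 on the log2 scale, did not pass (adjusted p = 0.227 in limma).

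Ppara was singled out because its cold response differed between the genotypes by -1.64 (adjusted p = 0.0188 in limma). It fell 3.74-fold in the cold in the knockout (adjusted p = 7.53e-05). The interaction call was lost over all probe sets, named or not (adjusted p = 0.0887), and without wildtype replicates 1 (0.0569) or 2 (0.0635) or knockout replicate 1 (0.0506) at room temperature, or knockout replicates 2 (0.0793) or 3 (0.053) at 4 °C.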

How the results depend on the processing

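Of the 10 genes, those called between genotypes at room temperature went from 0 to 1 with probe sets of mean 4 or more, and with trended and robust eBayes. Those called with cold in the wildtype went from 4 to 1 over all probe sets, 2 with the replicate block, 2 with the 6 arrays alone and 0 with wildtype replicate 3 moved to 4 °C. The average over temperature went from 4 to 2 over all probe sets, with quantile normalization, with the muscle score and with the array moved, and the average over genotype from 4 to 2 with it moved. Of all probe sets, the interaction went from 72 called to 114 (mean of 4 or more), 22 (all probe sets), 47 (replicate block) and 17 (array moved). Room temperature went from 404 to 199 (muscle score), 177 (array moved) and 245 (6 arrays), and the average over temperature from 1638 to 1042 (muscle score). With the array moved, cold in the wildtype went from 2606 to 0 (3602 at an unadjusted p under 0.05), in the knockout from 2123 to 1044, and averaged from 4139 to 2267.

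Leaving out 1 array gave, of the 10 genes, 0 to 1 called between genotypes at room temperature, 2 to 3 at 4 °C, 1 to 3 with cold in each genotype, 0 to 1 for the interaction, 1 to 3 averaged over temperature and 3 to 5 averaged over genotype. Of all probe sets it gave 255 to 458, 842 to 1345, 1608 to 2875 (wildtype), 1276 to 2300 (knockout), 21 to 123, 1261 to 1654 and 3509 to 4363.

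Signs turned only in differences that were not called, and the cause was not tested. Atl3 at room temperature was -0.018 with quantile normalization and -0.000874 with the array moved, and Rtn3 averaged over temperature -0.047 and -0.0082. With the muscle score, Tex264 was 0.091 at room temperature and -0.026 with cold in the knockout, Retreg1 -0.045 with cold in the knockout, and Map1lc3a 0.026 averaged over temperature. Retreg1 at 4 °C was -0.17 with the array moved. Without 1 array, Rtn3 (-0.085 to 0.036) and Atl3 (-0.11 to 0.14) turned at room temperature, Retreg1 at 4 °C (-0.30 to 0.75), Retreg1 (-0.21 to 0.28) and Tex264 (-0.12 to 0.13) with cold in the knockout, Map1lc3b in the interaction (-0.077 to 0.33) and Map1lc3a averaged over temperature (-0.085 to 0.051).

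No label says whether the replicate numbers pair the arrays. Deviations of same-numbered arrays from their group means correlated at -0.18 to 0.16, and 2 of 18 pairs exceeded 0.1. With 3 arrays per group, such correlations cannot show whether the arrays were paired. With the replicate block, Sqstm1 (adjusted p = 0.0247) and Wipi1 (0.00203) kept their calls at 4 °C, and Ccpg1 lost its call (0.0572). Averaging several probe sets, another background correction and a slide block were not run, since each gene had 1 probe set and no scanner files were used. With 6 arrays the interaction and averages could not be fitted.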
